A study of Homo sapiens with 4 samples.

Results

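RNA polymerase II (Pol II) occupancy was examined at 43 protein-coding genes of the DNA damage response and DNA repair, which include the repair genes best known from hereditary ovarian cancer. The genes were taken from a list of names by function, out of 20033 protein-coding genes on chromosomes 1 to 22, X and Y, and all 43 were found in the annotation. The study performed chromatin immunoprecipitation with a Pol II antibody followed by sequencing (ChIP-seq) in SK-OV-3, an established human ovarian cancer cell line. Cells carried a short hairpin RNA against RRN3 (shRRN3), an initiation factor of RNA polymerase I, or a hairpin against the bacterial gene LacZ (shLacZ) as control, delivered by lentivirus per the methods. Which of the RRN3 hairpins was used for ChIP-seq is not given in the sources used here. The labels name 4 samples, and the peak lists of the Pol II libraries were used, 1 per hairpin, without the inputs. Each hairpin had 1 library, so no difference between the lists could be compared with a spread between replicates, and no p-value was computed.

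On those chromosomes 3920 peaks were listed for shLacZ and 14322 for shRRN3. The read depth behind them is not used here, and with 1 library each, depth, enrichment and the effect of the hairpin cannot be told apart. Counts of genes in a window are therefore given with the share of all protein-coding genes in the same list. As a check of the cell type, 3 of 6 epithelial markers (KRT8, KRT18 and EPCAM) had a start peak in shRRN3, against 23.7% of all genes. In shLacZ 0 of them did, against 7.56% of all genes. KRT19 and CDH1 had no start or body peak in either list. Of 5 ovarian cancer markers, PAX8 had a start peak in both lists, and MUC16, MSLN, WT1 and ERBB2 had none in either. Of 6 markers of other cells, 0 had a start peak in either list. Both groups are to be read against the same shares of all genes. The epithelial marker KRT7 and the other-cell marker PECAM1 had a body peak only, in shRRN3. The shLacZ list, with 0 start peaks in the epithelial and other-cell groups, could not tell them apart. In shRRN3, groups of 5 or 6 markers are too small to settle the cell type from these shares.

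Cells meet DNA lesions with several pathways, which overlap in part. ATM and ATR, with their partners, sense breaks and stalled forks and act through the kinases CHEK2 and CHEK1, while BRCA1, BRCA2 and their partners repair breaks by copying an intact sister DNA. Ku and DNA-dependent protein kinase rejoin ends directly, the Fanconi anaemia proteins clear crosslinks between strands, and excision pathways remove damaged or mismatched bases. Loss of homologous recombination is common in ovarian carcinoma and underlies the use of PARP inhibitors in that disease.

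Peaks were recorded in 3 windows, which were within 1 kb of the start, in the gene body from 1 kb past the start to the end, and within 2 kb past the end. A peak counted by its midpoint. The start was first taken as the outer bound of the annotated gene span. Because that bound can be a rare upstream transcript, the start of the MANE Select transcript, the 1 transcript per gene that the annotation marks as representative, was used beside it. For 9 members (BRCA1, RAD51D, NBN, FANCC, XRCC1, XRCC5, LIG4, MSH6 and ERCC1) these starts lay more than 1 kb apart, as they did for 17.1% of the 19061 genes with a MANE Select transcript.

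At span starts, 4 of 43 members had a peak in shLacZ (9.3%, exact 95% interval 2.59% to 22.1%) against 7.56% of all protein-coding genes. In shRRN3, 15 members had one (34.9%, 21.0% to 50.9%) against 23.7% of all genes. At MANE Select starts, 5 members had a peak in shLacZ (11.6%, 3.89% to 25.1%) against 8.24% of all genes, and 20 in shRRN3 (46.5%, 31.2% to 62.3%) against 25.6%. These intervals cover counting error over genes only. Shares of all genes at starts were not matched for promoters shared with another gene, which are described below. The move from 15 to 20 genes came from BRCA1, RAD50, NBN, XRCC5 and ERCC1, whose MANE Select start carried a peak while the outer bound did not.

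Both lists had a span start peak at 2 members, FANCL and PRKDC, against 6.41% of all genes. A peak in shLacZ alone was found at 2 members, CHEK1 and ERCC2, against 1.15% of all genes. The other 13 members had one in shRRN3 alone, against 17.3% of all genes. At MANE Select starts the numbers were 17 members with a peak in shRRN3 alone (against 18.5% of all genes), 3 with a peak in both lists (7.01%) and 2 with one that only shLacZ held (1.23%).

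To compare lists of equal length, only the 3920 top-scoring shRRN3 peaks, those of score 102.86 or more, were kept. This reduced list had a span start peak at 7 members, against 9.74% of all genes, and a MANE Select start peak at 12 members (27.9%, interval 15.3% to 43.7%), against 10.6% of all genes. The 12 members were BRCA1, PALB2, RAD51C, RAD50, NBN, FANCA, FANCC, XRCC4, XRCC5, PRKDC, ERCC3 and XPC.

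**Figure D1:**
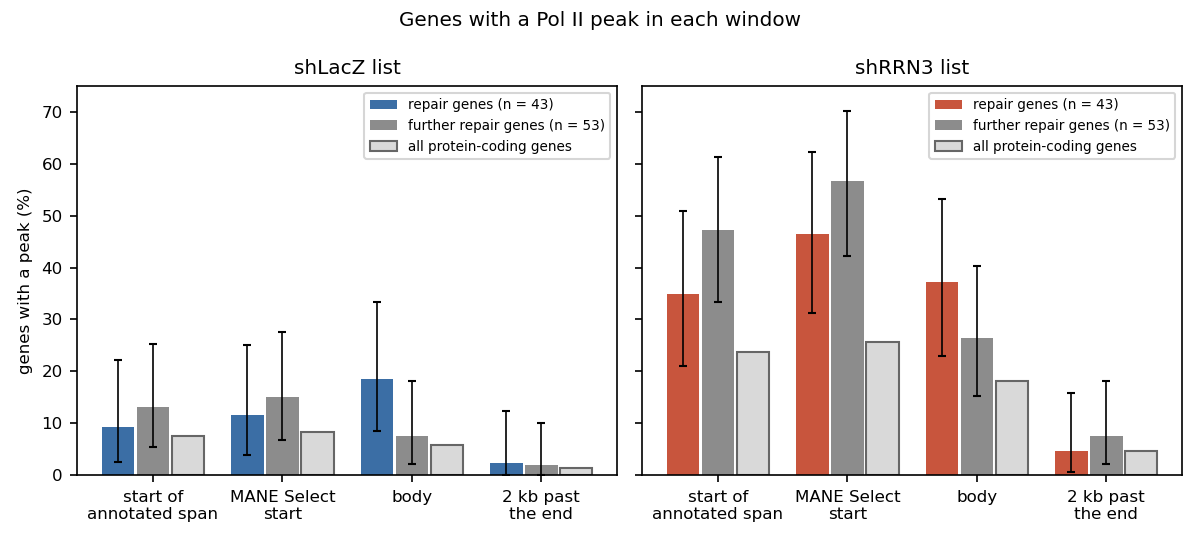
Share of genes with a Pol II peak (percent, vertical axis) at the start of the annotated span, at the MANE Select start, in the body and within 2 kb past the end, in the shLacZ list (left) and the shRRN3 list (right). Coloured bars are the 43 repair genes, grey bars 53 further repair genes and light bars all protein-coding genes, with exact 95% intervals for the 2 gene lists. The tallest coloured bar is the MANE Select start in shRRN3, at 46.5% against 25.6% of all genes.

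Of the 10 genes of homologous recombination, 5 had a MANE Select start peak in shRRN3, against 25.6% of all genes, and 0 in shLacZ, against 8.24%. The score of a peak is the authors' own, given by the peak caller and taken to be 10 times the −log10 of its p-value. It depends on depth, so it was ranked only within a list, where 100 is the top percentile. BRCA1 (chromosome 17, 43044295 to 43170245, minus strand) had the highest-ranked peak of the group in shRRN3, with a score of 219 (percentile 94.9) and a width of 1147 bp, centred 22 bp before the MANE Select start. This start lies 44.9 kb inside the annotated span, so the peak counted as a body peak by span, and in shLacZ the nearest midpoint was 126 kb away. PALB2, which links BRCA1 to BRCA2, had a shRRN3 peak of score 127 (percentile 82.2) centred 38 bp before the start. RAD51C, which acts in strand exchange, had one of score 117 (percentile 79.1) centred 156 bp into the gene. BRCA2, a central mediator of recombination, had one of score 95.6 (percentile 68.4) centred 228 bp before the start.

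BRIP1, a helicase that binds BRCA1, had 2 shRRN3 peaks at its start, with scores of 72.9 and 54.2. BARD1, the partner of BRCA1 in its ubiquitin ligase, had no peak in any window of either list, and the nearest shRRN3 midpoint lay 502 kb from its start. RAD51D, XRCC2 and XRCC3, which act in the same pathway, had no peak in any window either. RAD51B had no start peak but many peaks in its body, which are described below.

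Among the break sensors and checkpoint kinases, 4 of 9 had a MANE Select start peak in shRRN3 (25.6% of all genes) and 1 in shLacZ (8.24% of all genes). The peaks at subunits of the MRN complex, which binds broken ends, were NBN with a score of 199 (percentile 93.7) and RAD50 with 164 (percentile 89.9). The third subunit, MRE11, had no peak in any window of either list. TOPBP1, an activator of ATR, had a shRRN3 peak of score 92.8, and CHEK2, the kinase downstream of ATM, one of score 67.6 (percentile 41.3). ATR itself had no peak in any window, and ATRIP, which brings ATR to single-stranded DNA, and ATM had none at the start.

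CHEK1, the kinase downstream of ATR, had its start peak in shLacZ (chromosome 11, 125625712 to 125626059), with a score of 50.2, at percentile 0.714 of that list and so among the weakest peaks deposited. It was centred 722 bp into the gene. No shRRN3 peak was recorded in any window of CHEK1, and the nearest shRRN3 midpoint lay 33264 bp from this peak.

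The Fanconi anaemia genes held 2 of the 3 members with a MANE Select start peak in both lists. FANCC, a subunit of the Fanconi core complex, had the highest-scoring member peak of the shRRN3 list (chromosome 9, 95316783 to 95318369), with a score of 252 (percentile 96.3) and a width of 1587 bp. The whole 548 bp of its shLacZ peak, of score 60.1 (percentile 38.7), lay inside it, and the midpoints were 270 bp apart. FANCC had a further shRRN3 peak, of score 68.9, at the outer bound of its span, 109 kb upstream of the MANE Select start. FANCL, the ubiquitin ligase of the pathway, had a shLacZ peak of score 55.1 (percentile 23.6) and an overlapping shRRN3 peak of score 56.5 (percentile 20.1), with midpoints 48 bp apart. A second shRRN3 peak at FANCL, of score 72.7, was centred 600 bp into the gene. FANCA, another core subunit, had a shRRN3 peak of score 115 (percentile 78.2), whereas FANCD2 and FANCI, which the core complex ubiquitinates, had no peak in any window.

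For end joining, PRKDC, the catalytic subunit of DNA-dependent protein kinase, was the remaining member with a start peak in both lists. Its shLacZ peak (chromosome 8, 47960009 to 47960971) had a score of 80.2 (percentile 67.2), the highest among the shLacZ start peaks of members. In shRRN3, 2 adjacent peaks of scores 138 and 189 (percentiles 85.0 and 92.9) overlapped it by 426 and 534 bp. XRCC4, which holds the end-joining ligase, had a shRRN3 start peak of score 150 (percentile 87.6), and XRCC5, the larger Ku subunit, one of score 126 (percentile 82.0). XRCC6, the smaller Ku subunit, had only a body peak of score 58.7 in shRRN3. LIG4, the ligase itself, had no peak in any window.

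Nucleotide excision repair removes bulky lesions, and here ERCC3 and XPC stood highest in shRRN3. ERCC3, a helicase of the transcription factor TFIIH, had a peak of score 147 (percentile 87.1) centred 29 bp into the gene, and XPC, which recognises the lesion, one of score 127 (percentile 82.3). ERCC1, a nuclease subunit, had one of score 74.8 (percentile 50.1) centred 514 bp before its MANE Select start. ERCC2, the other TFIIH helicase, had its start peak in shLacZ alone (chromosome 19, 45370293 to 45370865), with a score of 64.8 (percentile 48.2), centred 6 bp before the start. The nearest shRRN3 midpoint lay 35820 bp away. XPA, a lesion-verifying factor, had no start peak in either list.

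The RPA complex coats single-stranded DNA during replication, recombination and excision repair. RPA2 had a shRRN3 start peak of score 80.6 (percentile 56.2) and RPA1 one of score 50.5, at percentile 1.77 of the list. RPA3 had a shRRN3 peak in the body only. No RPA gene had a peak in shLacZ. PARP1, XRCC1, LIG1 and LIG3, which act on strand breaks and in base excision repair, had no peak in any window of either list. Nor did the mismatch repair gene PMS2, while the mismatch gene MSH6 had a peak past the end of its span only. The annotation holds pseudogenes of PMS2, CHEK2 and FANCD2, and how reads matching more than 1 copy were handled is not given in the sources used here. Copies of the other members are not listed here, so the same limit can hold at their peaks, BRCA1 included.

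**Figure D2:**
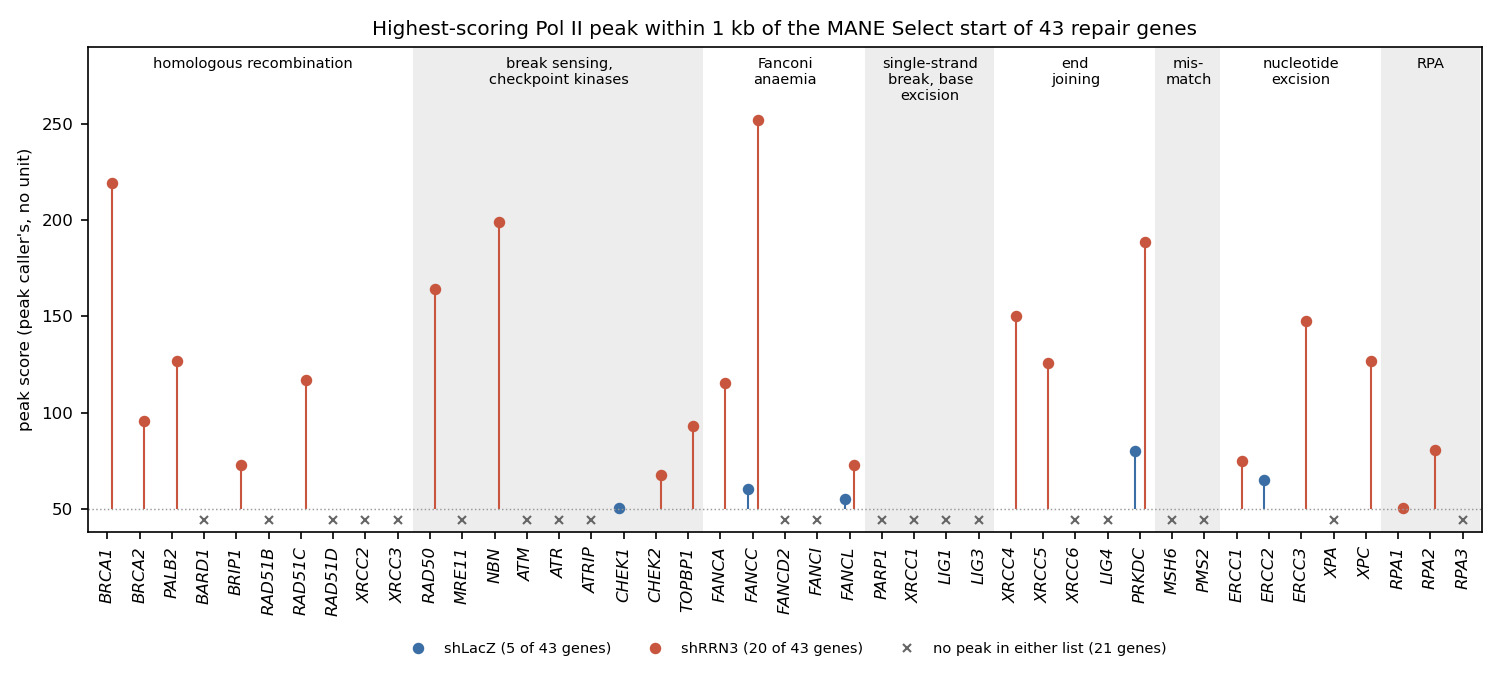
Score of the highest-scoring Pol II peak (peak caller's score, vertical axis) within 1 kb of the MANE Select start of each of the 43 genes, grouped by pathway. Blue points are shLacZ and red points shRRN3, crosses mark genes with no such peak in either list, and scores are comparable within a list only. FANCC, BRCA1 and NBN are highest in shRRN3, and the 5 shLacZ points stay at or below 80.2.

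In all, 14 members had no peak in any window of either list (BARD1, RAD51D, XRCC2, XRCC3, MRE11, ATR, FANCD2, FANCI, PARP1, XRCC1, LIG1, LIG3, LIG4 and PMS2), which is 32.6% of them against 62.5% of all genes. For these genes the nearest shRRN3 midpoint lay 19.0 to 700 kb from the MANE Select start, with a median of 70.9 kb. Some window held a peak in both lists at 11 members (25.6%, against 11.7% of all genes), only in shRRN3 at 16 (37.2%, against 24.4%) and only in shLacZ at 2 (4.65%, against 1.42%). These counts include gene bodies, and the members are longer than most genes, as given with the body peaks. A gene with no peak is a gene below the authors' threshold, and absence of Pol II cannot be read from it.

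At MANE Select starts, members had 5 peaks in shLacZ and 23 in shRRN3. The shLacZ peaks had scores from 50.2 to 80.2 with a median of 60.1, and 1 of the 5 exceeded 69.7, the median over all such shLacZ peaks. The shRRN3 peaks had scores from 50.5 to 252 with a median of 117, and 15 of 23 exceeded 86.6, the median over all such shRRN3 peaks. Median widths were 548 bp in shLacZ and 710 bp in shRRN3, against 477 and 610 bp over all genes. The median midpoint lay 6 bp before the start in shLacZ and 59 bp before it in shRRN3, and 8 of 23 shRRN3 midpoints lay past the start.

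**Figure D3:**
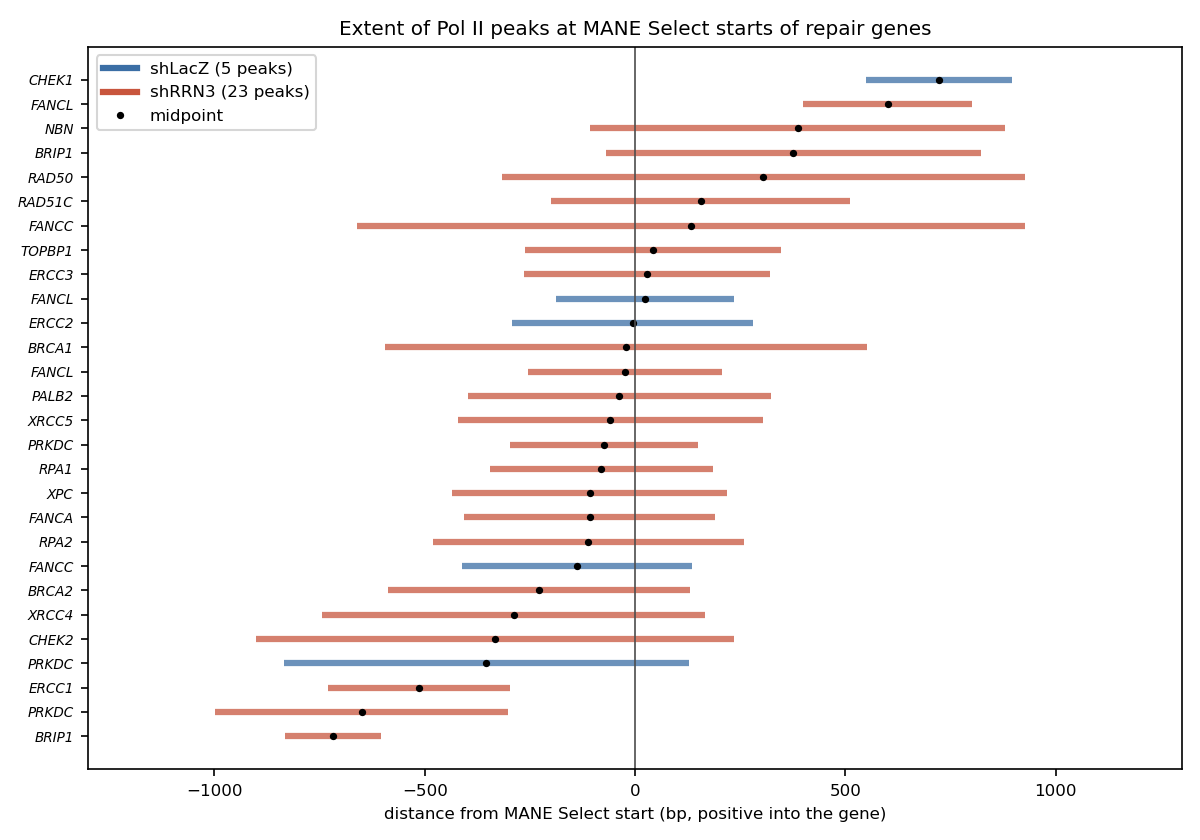
Extent of each Pol II peak at a MANE Select start of a repair gene, as distance from that start (bp, positive into the gene), with 1 line per peak and a dot at its midpoint. Blue lines are the 5 shLacZ peaks and red lines the 23 shRRN3 peaks. Most lines cross the start, and the CHEK1 peak of shLacZ lies furthest into its gene, at 722 bp.

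Overlap was counted where peaks shared at least 1 bp. Of the 5 shLacZ peaks at MANE Select starts, 3 were overlapped by a shRRN3 peak (60%, interval 14.7% to 94.7%), against 83.3% over all genes. In the other direction, 4 of 23 peaks from shRRN3 met one from shLacZ (17.4%, 4.95% to 38.8%), against 24.8% over all genes. Both intervals include the value over all genes, but they treat peaks as independent. BRIP1, FANCL and PRKDC had 2 of these shRRN3 peaks each, and both PRKDC peaks met the same shLacZ peak. With 5 shLacZ peaks, the first interval is too wide to show a difference.

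Many repair genes share a promoter with a gene on the other strand, and a peak there cannot be given to either gene by position. A protein-coding start on the opposite strand lay within 1 kb of the MANE Select start for 17 of 43 members (39.5%), against 12.3% of all genes. Among them were BRCA2 with ZAR1L at 145 bp, PALB2 with DCTN5 at 156 bp, XPC with LSM3 at 216 bp, XRCC4 with TMEM167A at 316 bp, ATM with NPAT at 429 bp and PRKDC with the replication helicase gene MCM4 at 49 bp. A shRRN3 peak was found at 9 of these 17 starts and at 11 of the 26 without such a partner. Over all genes, 50% of starts with a partner and 22.1% of starts without a partner had a shRRN3 peak. Members have a partner more often, so the 25.6% of all genes with a shRRN3 peak at the MANE Select start is not a matched share. How much of the members' higher share goes with this was not tested. BRCA1 had no protein-coding partner, but the noncoding gene NBR2 started within 1 kb on the other strand. Genes not annotated as protein-coding also started so at CHEK1, TOPBP1, FANCL and ERCC3. The start peaks of these members carry the same limit.

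Promoter sequences from RefSeq (GRCh38.p14, 250 bases before to 50 after the start) matched 37 of the 43 members, and NBN, FANCI, XRCC5, PRKDC, RPA2 and RPA3 were not matched. The words searched, on both strands, were TTTCCCGC or TTTGGCGC for E2F, CCGGAAG for ETS factors, GCATGCGC for NRF1, CCAAT for NFY, TTTGAA for the cell cycle element CHR, and TATAAA for the TATA box. E2F words were in 7 member promoters (18.9%), against 3.1% of 15345 protein-coding promoters, at MSH6, FANCD2, XPC, XRCC2, FANCC, LIG1 and XRCC6. The ETS word was in 11 (29.7%, against 14.4%), the NRF1 word in 3 (8.11%, against 4.25%) and the NFY word in 16 (43.2%, against 36.6%). The CHR word was in 4 (10.8%, against 12.1%) and the TATA word in 0, against 9.63%. Within 500 bases on each side of the start, over all 43 members, the NFY word was in 58.1%, below the 63.7% of all promoters. The NRF1 word was then in 6.98% against 6.24%, the ETS word in 39.5% against 22.4% and the E2F words in 27.9% against 7.15%.

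The words were found in members with and without a peak. Of the 16 matched members with a shRRN3 peak at the MANE Select start, 2 had an E2F word and 5 the ETS word, and of the 21 without such a peak, 5 and 6 did. The median GC share was 60.7% and 64.7% in these groups, 64.3% over the 37 members and 63.0% over all promoters. A match is a description of the sequence and not of binding.

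Stretches of 100 bases around the ETS word are shown for the 4 members with the highest-scoring shRRN3 start peaks among those that hold the word, as examples of promoter sequence under these peaks. They were chosen for the word and do not stand for the other start peaks. Each stretch reads 5′ to 3′ on the strand of the gene, capitals mark CCGGAAG or its reverse complement, and each lies wholly inside the shRRN3 peak. RAD50 is at chr5:132556776-132556875 on the plus strand, with the word 155 bases before the start. XRCC4 is at chr5:83077310-83077409 on the plus strand, with the word 191 bases before the start. ERCC3 is at chr2:127294145-127294244 on the minus strand, with 2 words, the first 27 bases before the start. PALB2 is at chr16:23641417-23641516 on the minus strand, with the word 160 bases before the start.
RAD50: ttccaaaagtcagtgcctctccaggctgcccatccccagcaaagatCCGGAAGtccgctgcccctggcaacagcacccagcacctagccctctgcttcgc
XRCC4: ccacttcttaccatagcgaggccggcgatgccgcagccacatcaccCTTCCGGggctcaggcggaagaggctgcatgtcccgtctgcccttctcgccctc
ERCC3: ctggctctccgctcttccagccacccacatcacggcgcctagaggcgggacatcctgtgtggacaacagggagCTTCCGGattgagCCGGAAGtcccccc
PALB2: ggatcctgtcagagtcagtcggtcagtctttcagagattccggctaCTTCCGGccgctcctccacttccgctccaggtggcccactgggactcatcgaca

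In gene bodies, 8 members had a peak in shLacZ (18.6%, interval 8.39% to 33.4%), against 5.77% of all genes. In shRRN3 it was 16 members (37.2%, 23% to 53.3%), against 18.1% of all genes. Repair genes are long, with a median span of 70.4 kb against 27.5 kb over all protein-coding genes. The median span was 86.2 kb for members with a shRRN3 body peak and 47.9 kb for those without. Among the 4357 genes with spans of 37.0 to 90.3 kb, the range of the middle members, 7.09% had a body peak in shLacZ and 23.6% in shRRN3. Of the 21 members in that range, 1 had one in shLacZ and 6 in shRRN3.

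The 8 shLacZ body peaks lay at BRIP1, RAD51B, RAD50, NBN, FANCC, XRCC4, XRCC5 and XPA, 1 per gene. Only those at RAD51B and FANCC were overlapped by a shRRN3 peak. The FANCC peak was at its MANE Select start, and the other 7 lay near no annotated start. Most were weak, with scores of 50.4 at XRCC5, 53.3 at XRCC4, 54.9 at XPA and 56.5 at BRIP1 and NBN. The RAD50 peak, of score 72.5, lay in exon 7. The peaks at BRIP1 and NBN had the same score and the same width of 213 bp, a pair of values that 7 shLacZ peaks shared.

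The 16 members held 52 body peaks in shRRN3. These classes can share peaks. Of the 52, 12 lay within 1 kb of a transcript start of the same gene, 6 of them at the MANE Select start, namely those of BRCA1, RAD50, NBN, FANCC, XRCC5 and ERCC1. The start of another annotated gene lay within 1 kb of 6 peaks, among them the peak in the last part of ATRIP (chromosome 3, 48465767 to 48466422, score 87.3), beside the start of the exonuclease gene TREX1, and the RPA3 peak (chromosome 7, 7640284 to 7640878, score 107), beside that of UMAD1. A further 37 peaks were near no annotated start, of which 31 lay in introns of the MANE Select transcript and 0 in its exons.

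XRCC5 had 7 body peaks in shRRN3. The one at its MANE Select start scored 126, and 4 more followed within introns 1 to 4, with scores of 79.4, 77.6, 56.9 and 53.0. Peaks in intron 16 and intron 19 had scores of 71.8 and 92.1. In shLacZ, XRCC5 had 1 peak, of score 50.4 in intron 16. Other intronic shRRN3 peaks were those of TOPBP1 in intron 5 (score 79.2), CHEK2 in intron 5 (77.7), XRCC6 in intron 6 (58.7), BRIP1 in intron 10 (99.4) and intron 6 (53.1), ATM in intron 56 (57.7) and XPA in intron 2 (56.5). XRCC4 had 2 in intron 7 (51.9 and 58.7), and its shLacZ peak lay 15885 bp from the nearer one. NBN had a peak in intron 2 (51.5), within 1 kb of another of its transcript starts. Another NBN peak lay before its MANE Select start, beside the start of DECR1 (58.8). ERCC1 had one far upstream of its own MANE Select start (79.1).

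RAD51B, the largest member, held 26 of the 52 body peaks of shRRN3 and 1 of the 8 of shLacZ. The gene spans 910 kb (chromosome 14, 67819779 to 68730218). No peak lay in its first 170 kb, the start included, in either list. Intron 7, which is 405 kb long, held 18 shRRN3 peaks, and 15 of them fell within 86.1 kb (68088680 to 68174807). A further 2 lay in intron 9 and 6 past the end of the MANE Select transcript but within the annotated span. Their scores ran from 50.8 to 154.51 with a median of 66.5, and their widths from 236 to 777 bp with a median of 340 bp.

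The shLacZ peak in RAD51B (68146911 to 68147185) had a score of 109 (percentile 83.5), and 263 of its 275 bp were covered by a shRRN3 peak of score 119 (percentile 80.0). Over the 323 protein-coding genes of 500 kb or more the median was 0 body peaks. RAD51B had 28.6 per Mb of span. Other annotated genes, 11 in all and none of them protein-coding, overlap the span of RAD51B, so a peak there cannot be given to RAD51B by position alone.

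**Figure D4:**
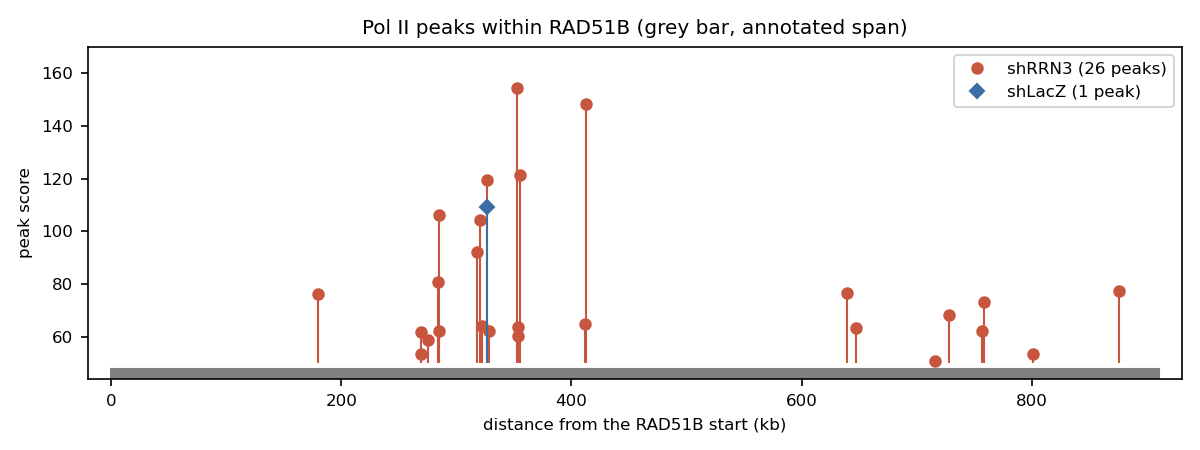
Pol II peaks within RAD51B by distance from its start (kb, horizontal axis) and peak score (vertical axis), with shRRN3 as red circles and shLacZ as a blue diamond. The grey bar is the annotated span of 910 kb. The 26 shRRN3 peaks begin 180 kb into the gene and 15 of them lie between 260 and 360 kb, around the 1 shLacZ peak.

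Gene ends were of interest because the study asked whether RRN3 affects Pol II termination. Within 2 kb past the end, 1 member had a peak in shLacZ (2.33%, interval 0.0589% to 12.3%), against 1.31% of all genes. In shRRN3 it was 2 members (4.65%, 0.568% to 15.8%), against 4.54% of all genes. The peak in both lists lay past ERCC1, at score 83.1 in shLacZ (chromosome 19, 45406249 to 45406793) and 76.1 in shRRN3 (45405957 to 45406842). It was centred 813 and 934 bp past the ERCC1 end, but the starts of POLR1G, which encodes a subunit of RNA polymerase I, and of PPP1R13L lay within 1 kb. The second shRRN3 peak, of score 65.1, lay 262 bp past the outer bound of the MSH6 span (chromosome 2, 47810220 to 47810429) and near no annotated start. Counted from MANE Select ends, 1 member had a peak in shRRN3 and 1 in shLacZ. Genes overlapping that place were not listed, so the peak cannot be given to MSH6 by position alone. Within 5 kb past the end, RAD51D, TOPBP1 and XRCC6 also had a shRRN3 peak, and in shLacZ the count stayed at 1. The shRRN3 list is much the longer, and no share of all genes is given for 5 kb. These counts therefore cannot be read as a difference at repair gene ends. With so few peaks, a change at the ends of repair genes was not detectable in these lists.

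A second list of 53 further repair genes was read in the same way. At span starts, 7 had a peak in shLacZ (13.2%, interval 5.48% to 25.3%), against 7.56% of all genes, and 25 in shRRN3 (47.2%, 33.3% to 61.4%), against 23.7%. The shLacZ genes were MUS81, FANCG, UBE2T, RNF8, H2AX, APEX1 and MSH3, and each but MUS81 also had a shRRN3 span start peak. At MUS81 the shLacZ peak, centred 998 bp past the span start and so at the edge of the window, was overlapped over 333 bp by a shRRN3 peak of score 93.8 centred 1168 bp past it. H2AX, the histone phosphorylated around breaks, had the highest scores of these in both lists, at 261 in shLacZ and 291 in shRRN3. The Fanconi anaemia ubiquitin enzyme UBE2T had 69.8 and 159, and the mismatch gene MSH3 84.4 and 153. High span start scores in shRRN3 were also those of PMS1 at 226, POLQ at 215 and EME1 at 166. None of these had a span start peak in shLacZ.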

How the data were processed

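Pol II ChIP-seq was performed in SK-OV-3 cells with 1 library per hairpin and sequenced on a BGISEQ-500 platform per the methods. The authors deposited 1 peak list per Pol II library, with coordinates, a peak name and a score. The score in the deposited lists was taken as 10 times the −log10 of the p-value, since the lowest values are 50.03 and 50. The peak names carry the name MACS. Its version, the aligner, duplicate handling, the threshold and use of the input are not given in the sources used here. The submitters' processing notes name hg38, the sequence versions are those of GRCh38, and 0 peaks ran past a chromosome end.

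Genes, MANE Select transcripts and exons came from GENCODE 44. Peaks were counted by midpoint, and overlap meant at least 1 shared bp. Read depth is unknown from peak lists. Intervals are exact Clopper-Pearson intervals for counting error only, and neighbouring genes are not independent. No test between hairpins was possible. The window code was tested on simulated peaks. The members and lists were chosen with earlier results of these data known. All 43 members are named, with values for those with a start peak in shLacZ, the highest-scoring start peaks in shRRN3, body peaks or peaks past the end. Of the further genes, those with a shLacZ start peak and those among the 5 highest in shRRN3 are named, except results not reported here. Alternatives were other windows, starts, overlap rules, scores and a shorter shRRN3 list. Counts were made with pandas 2.3.3 and numpy 2.4.6 in Python 3.11.15, intervals with scipy 1.17.1 and plots with matplotlib 3.10.9.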

Additional observations from a re-analysis of the deposited data

How the results depend on the processing

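No paired analysis was possible because each hairpin had 1 library, and no replicate could be left out. For 21 results, 73 values were computed under alternatives, of which 49 stayed close and 24 moved. A count stayed close if it was within 1.5 times of the reported count, and a percentage if it was within the counting interval of the reported one, so small counts can move within their own interval. MANE Select starts together with the reduced shRRN3 list, and body peaks without RAD51B, were added after the data were seen.

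The reduced shRRN3 list gave start peaks at 7 members (16.3%) and 14 further repair genes (26.4%), against 9.74% of all genes. Of the 7 members, 1 had a start peak in both lists and 6 in shRRN3 alone. The reduced list also gave body peaks at 7 members and 0 members with a peak past the end. By construction it drops the lower-scoring shRRN3 peaks. Keeping only peaks at or above a score of 66.05 in both lists left 1 member with a start peak in shLacZ (PRKDC), 1 in both lists, 0 in shLacZ alone and 2 with a body peak in shLacZ. Without starts that lie within 1 kb of another gene's start, 17 members were left. Start peaks were at 1 in shLacZ, 4 in shRRN3 and 0 in both, so that 4 were in shRRN3 alone and 1 in shLacZ alone. No share of all genes is given under this exclusion, so whether members exceed it there cannot be read. A window of 0.5 kb left 1 member in shLacZ alone, since the CHEK1 midpoint lies further from the start. Peaks past the end were found at 5 members in shRRN3 within 5 kb and at 1 from the MANE Select end, and without peaks near any gene start at 0 in shLacZ and 1 in shRRN3. Leaving out body peaks near a transcript start of the same gene left 10 members with one in shRRN3. Without RAD51B the shRRN3 body peaks numbered 26. The promoter window of 500 bases on each side of the start is longer and covers all 43 members instead of the 37 matched. There the CHR word was in 37.2% of members and 33.3% of all promoters, and the TATA word in 18.6% and 23.3%. The NFY share counted as close, but it passed from above the share of all promoters to below it. Counts of 1 to 5 genes limit what the shLacZ list can show. Apart from start peaks of the reduced list, gene counts in this paragraph carry no share of all genes under the same setting. They cannot be read as above or below it.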
